A study of Mus musculus with 9 samples.

Results

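The endoplasmic reticulum chaperones and secretory folding genes are 40 genes whose products receive, fold, check and ship proteins that enter the secretory pathway. They were found by gene symbol in the deposited expression table, where all 40 were present among 26202 genes. Messenger RNA had been sequenced in ATDC5, a mouse chondrogenic cell line widely used to follow cartilage formation in a dish. There were 9 libraries in 3 groups of 3: acetate, ethanol and control. All groups shared the culture: DMEM/F-12 with serum, to which sodium ascorbate, beta-glycerophosphate and insulin-transferrin-selenium were added when the cells met the treatments. No genotype or transgene is named for any group, and the cells are from 1 established line. Doses and times of acetate and ethanol, and what the controls received, are not given in the sources used here. The treatment protocol in the labels describes livers and HepG2 cells and was not used. The study asked whether acetate, the product of ethanol oxidation, could carry effects of ethanol on bone genes and on chondrocyte differentiation.

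Proteins bound for the cell surface or the matrix enter the endoplasmic reticulum through the Sec61 channel and are held by the chaperone Hspa5 and its J-domain co-chaperones until they fold. Glycoproteins cycle through the lectin chaperones calnexin and calreticulin, disulfide isomerases form and rearrange disulfide bonds, and failed proteins are returned to the cytosol for degradation. Collagens need a further set: prolyl hydroxylases, peptidyl-prolyl isomerases and the collagen-specific chaperone Serpinh1 (HSP47) act before the triple helix leaves in COPII vesicles. Chondrocytes secrete large amounts of collagen, and they are known for a strong demand on this machinery. The unfolded protein response, with the sensors Ern1, Eif2ak3 and Atf6, adjusts the same genes when folding lags.

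Many promoters of these genes carry short elements through which the unfolded protein response acts. The members were picked as genes of this machinery, which that response is known to adjust. A high share of the elements among them is therefore a description and not an independent result. The promoter windows are RefSeq's on GRCm38.p6, from 250 bases before to 50 bases after each annotated start, and 34 of the 40 members have 1 or more. Hyou1, Sil1, Manf, Erp29, Fkbp10 and Ppic were not matched. Both strands were searched for the ER stress element, CCAAT followed by 9 bases and CCACG, which is known to be bound by Atf6 together with the CCAAT factor NF-Y. It was present in 7 of 34 members (20.6%), against 37 of all 27025 genes with a window (0.137%), which include these members. The matches, read 5′ to 3′ in the direction of the element with its fixed bases in capitals, are these.
Hspa5: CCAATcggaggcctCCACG
Hsp90b1: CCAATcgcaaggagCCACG
Hsp90b1: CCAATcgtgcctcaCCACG
Dnajc3: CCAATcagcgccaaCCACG
Creld2: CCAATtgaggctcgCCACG
Calr: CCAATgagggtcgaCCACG
Canx: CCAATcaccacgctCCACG
Pdia6: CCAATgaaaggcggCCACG

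The 9 bases between the fixed ends differed in all 8 matches. In Hspa5, Dnajc3, Canx, Pdia6 and the more distant match of Hsp90b1 the element lay on the gene's own strand, and in Creld2, Calr and the nearer match of Hsp90b1 on the other. The Hspa5 element was the closest to the start, from base -65 to base -47, and the distant Hsp90b1 element the farthest, from -212 to -194. A second form, ATTGG followed by 1 base and CCACG, was present in Dnajb11 and Herpud1, 5.88% of the members with a window against 0.0444% of all genes. The motif TGACGTG, found in sites of the bZIP factors Atf6 and Xbp1, was present in Hspa5, Txndc5, Sec23a, Sec24d and Mia3, 14.7% against 2.22% of all genes. The short pieces alone were common: CCACG stood in 79.4% of members against 35.5% of all genes, and CCAAT in 70.6% against 41.1%. Every match of either form of the ER stress element holds both of these pieces, with ATTGG being CCAAT read on the other strand. Those counts therefore overlap. Such matches describe letters in a window, and binding was not measured.

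**Figure D1:**
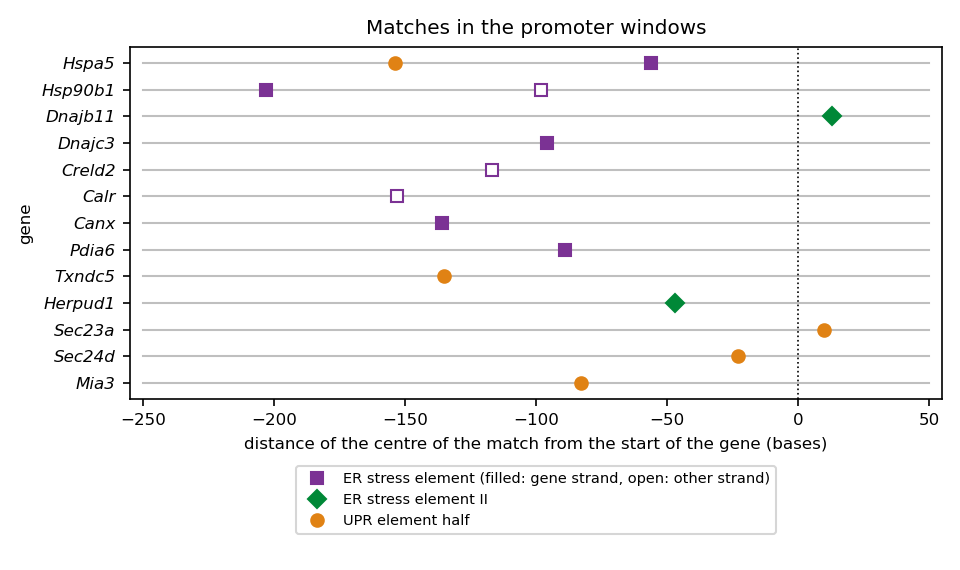
Positions of the element matches in the promoter windows of the 13 members that hold at least 1, as distance in bases from the annotated start (dotted line), with the window from 250 bases before to 50 bases after drawn in grey. Squares are the ER stress element (filled on the gene's strand, open on the other), diamonds its second form and circles TGACGTG; Hspa5 holds 2 kinds and Hsp90b1 holds 2 squares.

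For the central chaperones Hspa5 (chr2:34771840-34772089, plus strand), Hsp90b1 (chr10:86705445-86705694, minus strand) and Calr (chr8:84846932-84847181, minus strand), the 250 bases before the start show the elements in place, on the gene's strand and 5′ to 3′. Capitals mark the fixed bases of each ER stress element, which read as CGTGG and ATTGG where it lies on the other strand, and TGACGTG in Hspa5.
Hspa5: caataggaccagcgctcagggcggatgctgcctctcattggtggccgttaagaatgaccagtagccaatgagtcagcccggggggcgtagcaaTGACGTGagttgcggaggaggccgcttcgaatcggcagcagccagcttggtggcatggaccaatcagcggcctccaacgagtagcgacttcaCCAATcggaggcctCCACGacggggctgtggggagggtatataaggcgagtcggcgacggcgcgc
Hsp90b1: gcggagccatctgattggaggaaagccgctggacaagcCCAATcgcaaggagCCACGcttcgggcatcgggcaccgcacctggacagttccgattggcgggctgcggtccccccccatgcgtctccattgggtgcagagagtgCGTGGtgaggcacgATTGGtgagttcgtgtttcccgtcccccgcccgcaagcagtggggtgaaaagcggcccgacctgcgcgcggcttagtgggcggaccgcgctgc
Calr: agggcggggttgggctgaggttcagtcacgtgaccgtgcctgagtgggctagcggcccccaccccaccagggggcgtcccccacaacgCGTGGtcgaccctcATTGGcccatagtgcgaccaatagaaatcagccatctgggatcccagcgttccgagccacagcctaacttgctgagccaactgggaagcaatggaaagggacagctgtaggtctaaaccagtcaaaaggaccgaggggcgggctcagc

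Levels are given as CPM, reads of a gene relative to library size, after the authors' trimmed-mean (TMM) scaling. Library sizes recovered from the table were 28.7 to 41.9 M reads, so that 1 read was worth 0.0231 to 0.0348 CPM. All 40 members passed the filter for testing, set at 1 CPM on average across the 9 libraries, as did 12868 genes in all. The lowest control means were 22.8 CPM for Fkbp2 and 23.0 CPM for Dnajb9, far above what a few reads could give. The lowest single value was 6.66 CPM, for Dnajb9 in acetate replicate 2. Of 12 chondrocyte markers, all reached a mean of 1 CPM, with a summed level of 6588 to 7205 CPM in acetate, 5928 to 7329 CPM in ethanol and 12313 to 16063 CPM in control. Of the lists for other cells, only Lyz2 among 7 macrophage markers and Pecam1 among 5 endothelial markers reached that mean, and none of 6 epithelial, 5 adipocyte and 5 skeletal muscle markers did. Tyrobp, Myod1 and Myog were at 0 in every library. The levels of each of these 5 lists summed to under 3 CPM in every library. Acetate replicate 2 was unlike the rest, and its difference from the other acetate libraries followed the GC content of transcripts across all tested genes (r = 0.83). Results are therefore given with and without it. Whether the replicates came from separate cultures is not given in the labels, and the p-values reflect only how far these libraries spread, which may include technical variation alone.

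In control cells the members covered a wide span of abundance. Per kilobase of a principal annotated transcript, Serpinh1 led with 1039.8 CPM, ahead of Calr with 594, Hsp90b1 with 549, Ppib with 361, Pdia3 with 321 and Hspa5 with 259. The collagen chaperone was thus the most abundant of the 40 on this scale. At the low end stood Dnajb9 with 9.33, Sel1l with 10.9, Creb3l2 with 14.4, Dnajc3 with 16.8 and P3h3 with 26.2 CPM per kilobase. These orders depend on the transcript chosen for the length. Summed over the 40 members, the level was 12946, 11016 and 10825 CPM in acetate, 10489, 10379 and 9886.5 CPM in ethanol, and 14846, 13447 and 13448 CPM in control. That is 1.23%, 1.15% and 1.11% of all CPM in acetate, 1.09%, 1.06% and 1.02% in ethanol, and 1.39%, 1.35% and 1.28% in control. Each library of either treatment thus gave a smaller share to these genes than any control library. In bulk RNA, fewer cells of a type and less RNA per cell cannot be told apart.

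**Figure D2:**
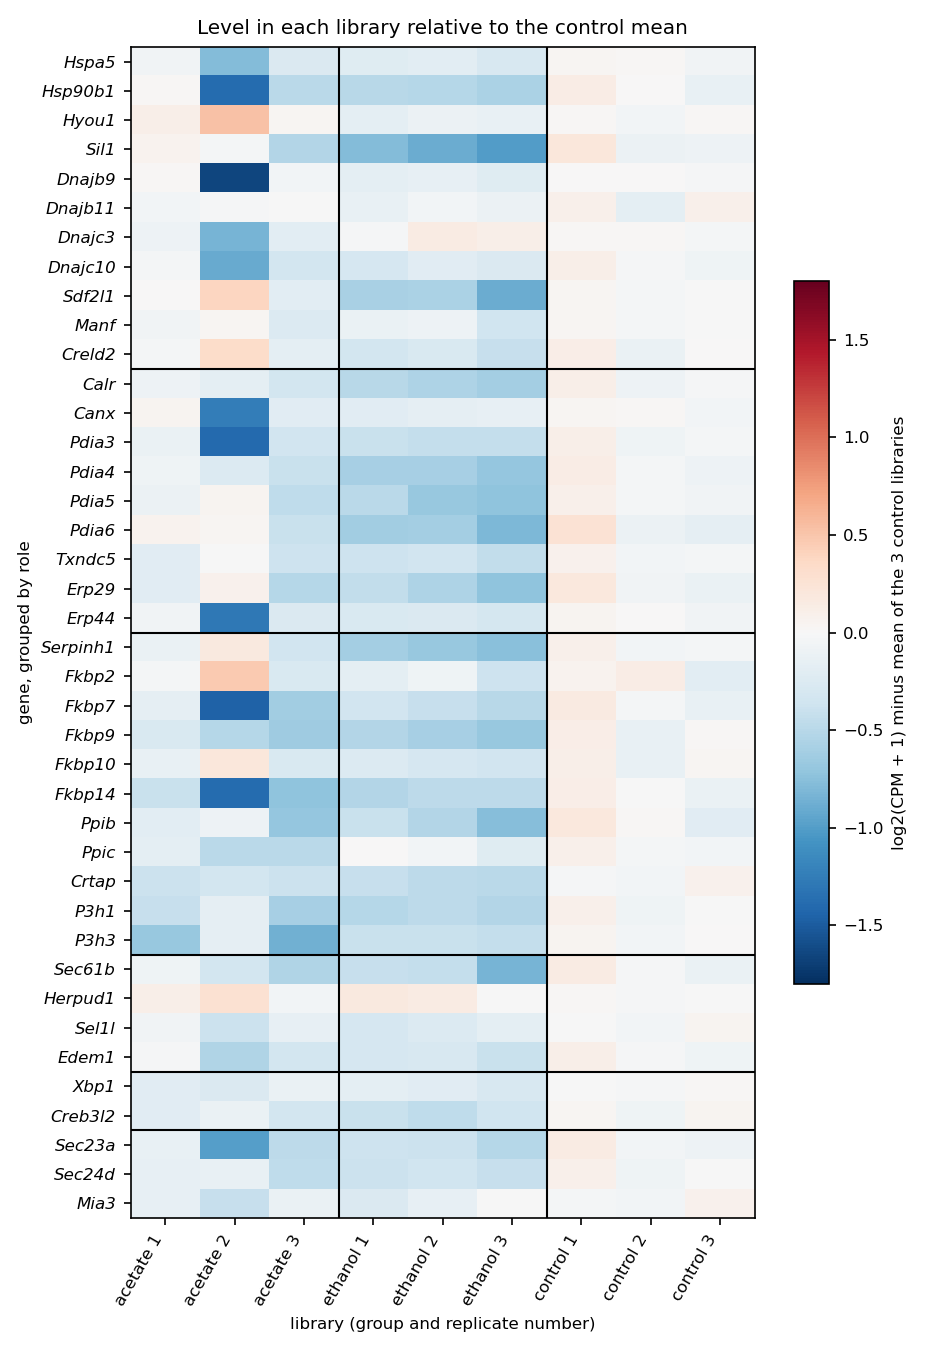
Level of each of the 40 genes (rows, grouped by role) in each of the 9 libraries (columns) as log2(CPM + 1) minus the mean of the 3 control libraries, red above and blue below. The ethanol columns are blue in nearly every row, and acetate replicate 2 departs from the other acetate libraries in both directions.

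With ethanol most folding genes stood below control, and those that passed the test were the collagen chaperone Serpinh1 with Crtap and Fkbp9, calreticulin (Calr) with the disulfide isomerases Pdia4 and Pdia5, and the Hspa5 partners Sil1 and Sdf2l1. The log2 difference was negative in 38 of 40 members, and Dnajc3 and Herpud1 were the exceptions. In limma's test over all genes, 8 members fell and 0 rose at an adjusted p under 0.05, against a background of 2.45% of tested genes lower and 1.48% higher. At an unadjusted p under 0.05 there were 21 members, against 19.0% of tested genes. The median change over the 40 members was -0.40 on the log2(CPM + 1) scale, against 0.00 over all tested genes. The 3 ethanol libraries lay below all 3 control libraries in 34 of 40 members, where 23.3% of tested genes did so. The groups overlapped for Dnajb11, Dnajc3, Fkbp2, Ppic, Herpud1 and Mia3. Summed chondrocyte markers were lower over the same libraries, with 8 of the 12 past the threshold with each treatment, and their part in these changes was not tested.

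The count of calls depended on which libraries entered the fit more than the medians did. With the replicate number as a block, which pairs same-numbered ethanol and control libraries, 12 members fell, against 5.07% of genes, with Pdia6, Erp29, Ppib and Sec61b added. Without acetate replicate 2, which then no longer adds to the shared spread, 28 members fell, against 11.3% of genes lower and 10.2% higher. By role these were 8 of 9 lectin chaperones and disulfide isomerases, 9 of 11 collagen chaperones and prolyl isomerases, 4 of 11 Hsp70 and Hsp90 chaperones and co-chaperones, 3 of 4 translocation and degradation genes, both transcription factors, and the COPII genes Sec23a and Sec24d. Leaving out any 1 of the ethanol or control libraries gave 0 members, with 68 to 148 genes lower over the whole table. Quantile scaling gave 3 members, against 411 of 12868 genes tested, and a median of -0.30.

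Among the lumenal Hsp70 and Hsp90 chaperones and their co-chaperones, 2 of 11 fell, with a median of -0.23. Sil1, the nucleotide exchange factor that recharges Hspa5 (chr18:35266396-35499780, minus strand), stood at 27.4, 25.3 and 23.4 CPM in ethanol, against 55.2, 44.3 and 44.6 CPM in control. Its log2 change of -0.89 ± 0.17 (SE) was the largest of the 40, with an adjusted p of 0.0242. All ethanol libraries lay well below all control libraries, and the mean fell by 47.2%. Sdf2l1, a stress-induced partner of J-domain co-chaperones (chr16:17130138-17132383, minus strand), stood at 23.7, 23.8 and 18.9 CPM in ethanol, against 36.9, 35.1 and 35.7 CPM in control. That change was -0.68 ± 0.16 with an adjusted p of 0.0499, just inside the threshold, and the groups did not overlap.

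Hspa5 itself (BiP; chr2:34771970-34777547, plus strand), the central Hsp70 of the compartment, stood at 816, 837 and 779 CPM in ethanol, against 973, 967 and 914 CPM in control. The difference of -0.23 ± 0.17 did not pass the test (adjusted p = 0.523), although the groups did not overlap. Without acetate replicate 2, which shares the variance estimate, the SE of that difference was 0.08 and the adjusted p 0.0731. Hsp90b1 (GRP94; chr10:86690209-86705509, minus strand), the lumenal Hsp90, stood at 1096, 1084 and 1045 CPM in ethanol, against 1701, 1547 and 1402 CPM in control. Its difference of -0.52 ± 0.29 had an adjusted p of 0.371, and of 0.0193 without acetate replicate 2, with a range of 7.27e-10 to 0.733 over the alternatives. Its groups did not overlap, and the SE of the same difference was 0.13 without acetate replicate 2, which shares the variance estimate. About 10.3% of its exonic bases overlap a pseudogene on the other strand, and how the counting treated strand is not given in the sources used here.

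Dnajb9 (ERdj4; chr12:44205559-44210326, minus strand), a J-domain co-chaperone and common marker of the unfolded protein response, stood at 20.1, 20.7 and 19.7 CPM in ethanol, against 23.1, 23.1 and 22.7 CPM in control. This is a shift of -0.18 ± 0.37 with an adjusted p of 0.861. Without acetate replicate 2, which shares the variance estimate, the SE of that shift was 0.07 and the adjusted p 0.102. The shift was small but without overlap between the groups. The J-domain proteins Dnajb11 and Dnajc10, the nucleotide exchange factor Hyou1, and the stress-induced secreted proteins Manf and Creld2 had log2 differences of -0.34 to -0.09, and none passed. Without acetate replicate 2 only Creld2 among them passed (adjusted p = 0.0201). Dnajc3, which also inhibits the kinase Eif2ak3, had 0.08 ± 0.18.

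The lectin chaperones and disulfide isomerases had the lowest median of the 6 role groups, -0.55, and 3 of 9 fell. Calr (chr8:84841850-84846934, minus strand), the lumenal lectin chaperone and calcium store protein, stood at 919, 884 and 843 CPM in ethanol, against 1396, 1214 and 1278 CPM in control. It fell by 0.55 ± 0.11 on the log2 scale with an adjusted p of 0.0307. The mean fell by 31.9%. Canx, its membrane-bound relative, differed by only -0.17 ± 0.27 with an adjusted p of 0.813, so that the lectin chaperones did not both pass. Without acetate replicate 2 the SE for Canx was 0.08 and the adjusted p 0.162. Whether the 2 genes differ in their change was not tested. Pdia4 (ERp72; chr6:47796141-47813430, minus strand), a disulfide isomerase with several active domains, stood at 233, 233 and 218 CPM in ethanol, against 386, 344 and 330.1 CPM in control. It changed by -0.63 ± 0.12, with an adjusted p of 0.0246 and a call in 13 of 19 alternatives. Pdia5, another disulfide isomerase (chr16:35397312-35490873, minus strand), stood at 60.5, 52.4 and 50.9 CPM in ethanol, against 90.7, 82.4 and 81.4 CPM in control, a change of -0.63 ± 0.15 with an adjusted p of 0.0477. For both isomerases every ethanol library lay below every control library.

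Pdia6 (P5), which was picked here after its values were seen because it lay just outside the threshold, stood at 189, 191 and 166 CPM in ethanol, against 352, 272 and 263 CPM in control. Its difference of -0.69 ± 0.16 was larger than that of Calr, but so was its SE, and the adjusted p was 0.0525. The SD of Pdia6 was 48.7 CPM in control, 47.4 CPM in acetate and 13.8 CPM in ethanol, and all groups share the variance estimate. Txndc5, Pdia3 (the isomerase that works with the lectin chaperones), Erp44 (which retains oxidases in the secretory pathway) and Erp29 had differences of -0.38 ± 0.12, -0.42 ± 0.28, -0.28 ± 0.26 and -0.57 ± 0.16, and none passed. Without acetate replicate 2 each of them passed, with an adjusted p of 0.00745 to 0.0255, against 11.3% of genes lower. Exons of Erp29 overlap Naa25 on the other strand over 24.4% of their bases, so its counts are uncertain.

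Of the collagen chaperones and prolyl isomerases, 3 of 11 fell, and the median was -0.46. Serpinh1 (HSP47; chr7:99345376-99353239, minus strand), which binds procollagen triple helices, stood at 1542, 1478 and 1404 CPM in ethanol, against 2505, 2278 and 2309.9 CPM in control. The means were 1475 ± 68.9 CPM in ethanol and 2365 ± 123 CPM in control (SD, n = 3 each), a log2 change of -0.68 ± 0.14 with an adjusted p of 0.0334. This most abundant member per length thus fell by 37.6% in mean level, and no ethanol library reached the lowest control. Quantile scaling shrank that change to -0.26. Fkbp9, a prolyl isomerase of the endoplasmic reticulum (chr6:56832059-56879358, plus strand), stood at 329, 313 and 298 CPM in ethanol, against 516, 435 and 482 CPM in control, a change of -0.60 ± 0.13 with an adjusted p of 0.0329. Crtap (chr9:114375134-114390675, minus strand), the scaffold of the complex that 3-hydroxylates collagen prolines, stood at 146, 140.2 and 138 CPM in ethanol, against 192, 187 and 205 CPM in control. It changed by -0.46 ± 0.10 with an adjusted p of 0.0328, the tightest error among the 8.

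The enzymes and isomerases that work beside Crtap had negative differences that did not pass over all 9 libraries. P3h1, the prolyl 3-hydroxylase of that complex, differed by -0.50 ± 0.13 with an adjusted p of 0.0649, and Ppib, its cyclophilin subunit, by -0.57 ± 0.18 with an adjusted p of 0.134. The others, Fkbp2, Fkbp7, Fkbp10 (FKBP65), Fkbp14, Ppic and P3h3, had log2 differences of -0.49 to -0.09. Without acetate replicate 2 the adjusted p was 0.00226 for P3h1 and 0.0243 for Ppib. In that fit Fkbp7, Fkbp10, Fkbp14 and P3h3 also passed, against 11.3% of genes lower, and Fkbp2 and Ppic did not. Ppic, cyclophilin C, and Fkbp2 were the 2 of this group whose ethanol and control libraries overlapped. Exons of Ppib overlap Snx22 on the other strand over 25.0% of their bases, so its counts are uncertain too.

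In the other roles 0 of 9 members passed with ethanol. The transcription factors are the upstream part of this set, since Xbp1 drives chaperone and secretory genes and Creb3l2 is known in mouse cartilage to drive Sec23a. Creb3l2 (chr6:37327255-37442146, minus strand) stood at 76.6, 74.3 and 79.1 CPM in ethanol, against 105, 96.0 and 105 CPM in control, a difference of -0.41 ± 0.10 with an adjusted p of 0.0647. Xbp1 (chr11:5520659-5525893, plus strand) stood at 97.7, 96.2 and 90.2 CPM in ethanol, against 110.3, 109 and 113 CPM in control, a difference of -0.23 ± 0.10 with an adjusted p of 0.244. Neither gene's groups overlapped. Without acetate replicate 2 the adjusted p was 0.00445 for Creb3l2 and 0.0362 for Xbp1, with ranges over the alternatives of 8.2e-09 to 0.28 and 0.00183 to 0.594. Gene-level values do not tell the spliced Xbp1 message from the unspliced. Among the cargo and degradation genes, the channel subunit Sec61b differed by -0.56 ± 0.16, the COPII coat genes Sec23a and Sec24d by -0.43 ± 0.19 and -0.39 ± 0.12, and Mia3 (TANGO1), which loads procollagen into vesicles, by -0.14 ± 0.12. Of the degradation genes, the mannosidase-like Edem1 and the ligase adaptor Sel1l differed by -0.33 ± 0.14 and -0.24 ± 0.11, and the membrane protein Herpud1 by 0.10 ± 0.11.

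**Figure D3:**
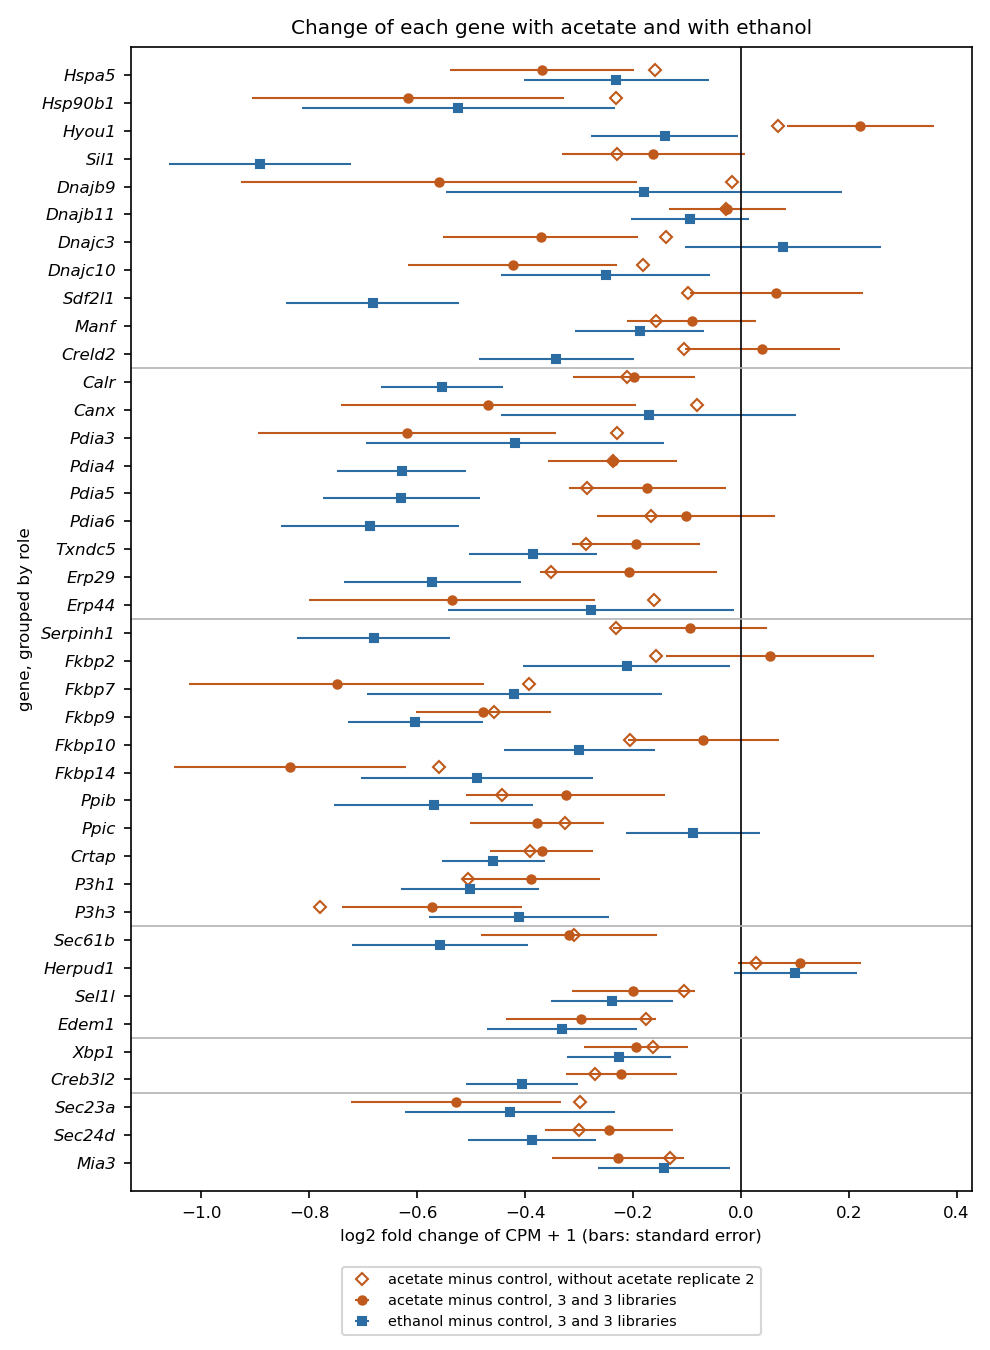
Log2 fold change of CPM + 1 for each of the 40 genes (rows, grouped by role), with acetate as filled circles, acetate without its replicate 2 as open diamonds, and ethanol as squares; bars are standard errors from limma. The ethanol squares lie left of 0 for 38 genes, and the circles and diamonds part most for Dnajb9, Canx, Pdia3, Hsp90b1 and Erp44.

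With acetate most of the 40 genes again stood below control, but no member passed. The difference was negative in 35 of 40 members, the median was -0.24 against -0.01 over all tested genes, and in limma's test 0 members fell and 0 rose, against 0.497% of genes lower and 0.505% higher. Over all genes 65 were higher and 64 lower, and quantile scaling gave 38 higher and 62 lower. The smallest adjusted p was 0.112 (Fkbp14), 8 members had an unadjusted p under 0.05, against 14.6% of tested genes, and limma's voom fit on recovered reads also called 0. All 3 acetate libraries lay below all 3 control libraries in 18 members, where 8.14% of tested genes did so. The nucleotide exchange factor Hyou1 was the single member above control in every library, at 159, 213 and 151 CPM in acetate and 150.3, 143 and 151 CPM in control, where 11.4% of tested genes were, with acetate replicate 3 barely above control replicate 3. Its difference of 0.22 ± 0.14 did not pass (adjusted p = 0.436).

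Acetate replicate 2 departed from the other acetate libraries along base composition among the members too. The 8 members with transcripts under 45% GC were lower in that library than in both other acetate libraries, with a median difference of -1.10 on the log2 scale. Of the 7 members at 55% GC or more, 6 were higher in it than in both others, with a median of 0.41. Dnajb9, at 41.8% GC, stood at 23.3, 6.66 and 22.1 CPM in acetate replicates 1, 2 and 3. Hsp90b1, at 42.9% GC, stood at 1562, 590.1 and 1109 CPM in the same libraries. Serpinh1, at 57.3% GC, stood at 2169, 2676 and 1868 CPM, with replicate 2 now the highest. Across the 40 members, r between GC content and this difference was 0.86, a description of 1 library over genes that share it.

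**Figure D4:**
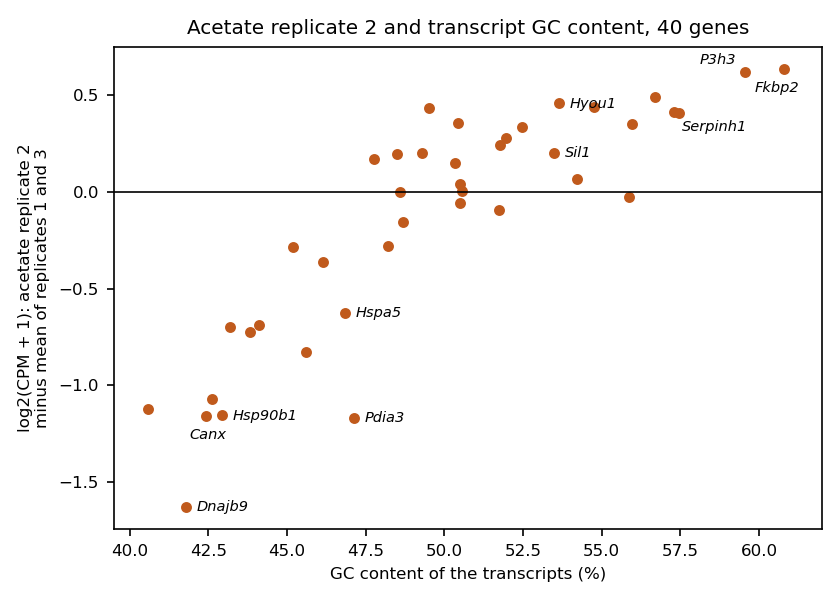
Difference in log2(CPM + 1) between acetate replicate 2 and the mean of acetate replicates 1 and 3 (vertical) against the GC content of the annotated transcripts in percent (horizontal), 1 point per gene for the 40 genes. Points below 45% GC all lie under 0, down to Dnajb9, and most points above 55% GC lie over it.

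Without acetate replicate 2, 4 members fell and 0 rose, against 1.53% of genes lower and 1.95% higher, and all 4 belong to the collagen group. These were the subunits Crtap and P3h1 of the collagen prolyl 3-hydroxylation complex, the related P3h3, which is known to work with lysyl hydroxylase 1, and the prolyl isomerase Fkbp14. P3h3 (chr6:124841089-124857752, minus strand) stood at 46.0, 66.8 and 40.4 CPM in acetate, against 77.5, 72.0 and 74.8 CPM in control, and acetate replicate 2 was the high value. Its difference was -0.57 ± 0.17 with an adjusted p of 0.159 over all libraries, and -0.78 ± 0.08 with 0.00226 without that library, over a range of 5.31e-21 to 0.491 among the alternatives. P3h1 (chr4:119232915-119248975, plus strand) stood at 159, 190.2 and 139 CPM in acetate, against 227, 199.9 and 210.1 CPM in control. Its difference was -0.39 ± 0.13 with an adjusted p of 0.209, and -0.51 ± 0.09 with 0.0142 without replicate 2, over a range of 6.61e-10 to 0.624. For both hydroxylases every acetate library lay below every control library, with or without replicate 2. P3h1, P3h3 and Fkbp14 were chosen for full values after these calls were seen.

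Crtap held steadier across the acetate libraries, at 148, 155 and 148 CPM, against 192, 187 and 205 CPM in control. Its difference was -0.37 ± 0.10 with an adjusted p of 0.113, and -0.39 ± 0.07 with 0.0215 without replicate 2, over a range of 2.78e-06 to 0.413. Fkbp14 (chr6:54577604-54597308, minus strand), at 45.6% GC, stood at 113, 56.3 and 89.7 CPM in acetate, against 162, 148 and 137 CPM in control. Its difference was -0.84 ± 0.22 with an adjusted p of 0.112, and -0.56 ± 0.11 with 0.0215 without replicate 2, over a range of 2.31e-11 to 0.408. Replicate 2 was the low value here, the opposite of P3h3, and the groups stayed apart with or without it. Leaving out acetate replicate 1 instead called Fkbp14 alone, against 186 of 12868 genes tested. Over the 40 members, 23 lay below control without overlap once replicate 2 was left out, where 12.5% of genes did so, and the median was -0.22. A correction of every library for GC content called 5 members with acetate, the same 4 and Fkbp9, against 2.02% of genes lower.

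For the members that fell with ethanol, the acetate values against the same control libraries, which both comparisons share, were as follows. Sil1 stood at 50.1, 46.9 and 33.0 CPM in acetate, a difference from control of -0.16 ± 0.17 (adjusted p = 0.603). Sdf2l1 stood at 35.9, 47.4 and 31.2 CPM, with 0.07 ± 0.16 (adjusted p = 0.831), and its sign turned to -0.10 without acetate replicate 2. Serpinh1 differed by -0.09 ± 0.14 (adjusted p = 0.724). For these 3 the acetate and control libraries overlapped. Calr stood at 1212, 1148 and 1032 CPM and differed by -0.20 ± 0.11 (adjusted p = 0.42), and its acetate libraries lay just below the control libraries. Pdia4, at 335, 299 and 267 CPM, and Pdia5, at 78.5, 87.6 and 61.3 CPM, differed by -0.24 ± 0.12 and -0.17 ± 0.15, with overlap. Fkbp9, at 392, 333 and 306 CPM and below control in every acetate library, had a difference of -0.48 ± 0.13 (adjusted p = 0.118).

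Of the general chaperones and transcription factors, none passed with acetate. Hspa5 stood at 910.2, 551 and 796 CPM in acetate and differed from control by -0.37 ± 0.17, or -0.16 ± 0.09 without replicate 2. Hsp90b1 differed by -0.62 ± 0.29, or -0.23 ± 0.14 without it, and Dnajb9 by -0.56 ± 0.37, or -0.02 ± 0.08. For Dnajb9 the difference thus rested on that library. Xbp1 stood at 96.4, 92.5 and 102 CPM and differed by -0.19 ± 0.10, and Creb3l2 stood at 88.0, 93.6 and 80.7 CPM and differed by -0.22 ± 0.10. Both factors lay below control in all 3 acetate libraries.

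**Figure D5:**
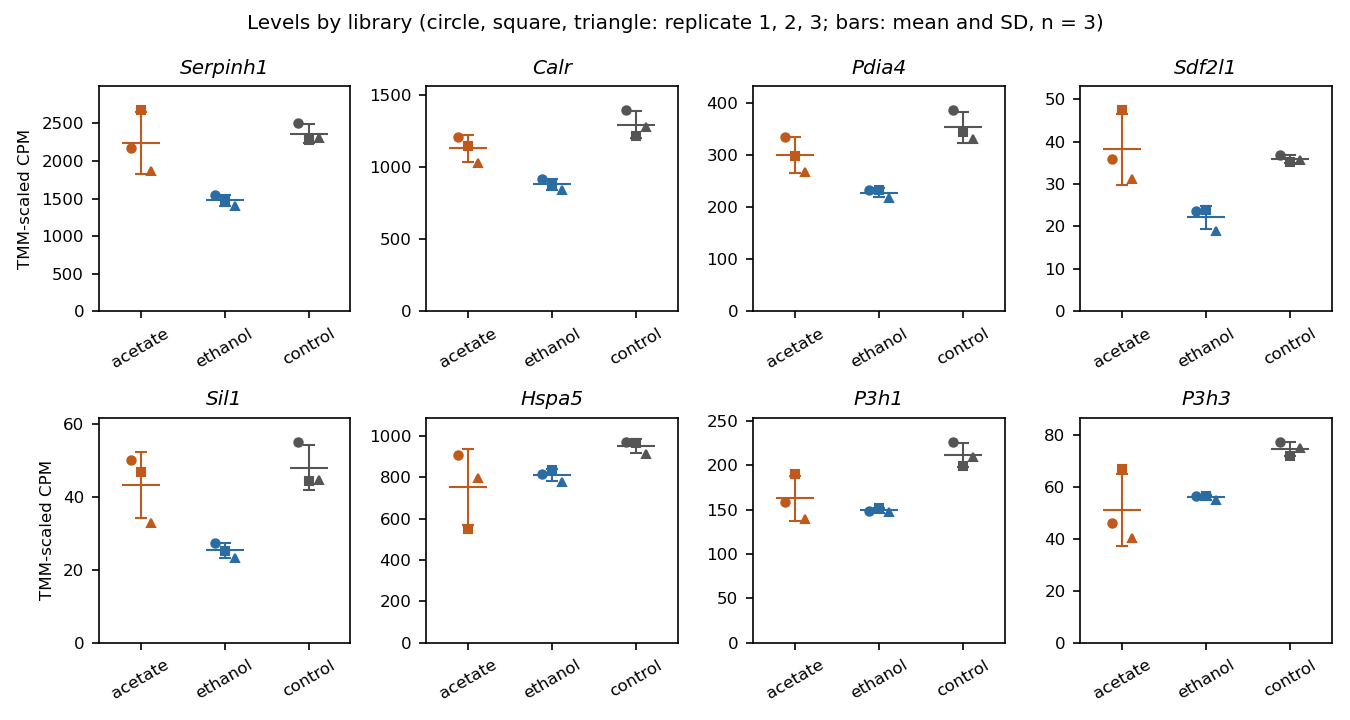
TMM-scaled CPM of 8 genes in acetate, ethanol and control, with 1 symbol per library (circle, square and triangle for replicates 1, 2 and 3) and bars for the mean and SD (n = 3); every axis starts at 0. Ethanol libraries of Serpinh1, Calr, Pdia4, Sdf2l1 and Sil1 lie below all libraries of the other groups, and P3h1 and P3h3 lie below control with either treatment.

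Set against ethanol directly, Sil1 and Sdf2l1 were higher in acetate. Sil1 averaged 43.3 ± 9.09 CPM in acetate and 25.4 ± 1.99 CPM in ethanol (SD, n = 3 each), a log2 difference of 0.73 ± 0.17 with an adjusted p of 0.0483. Sdf2l1 averaged 38.2 ± 8.32 CPM in acetate and 22.1 ± 2.78 CPM in ethanol, a difference of 0.75 ± 0.16 with an adjusted p of 0.0352. For both genes the lowest acetate library lay above the highest ethanol library. In all, 2 of 40 members were higher and 0 lower, against 2.84% and 0.886% of tested genes, so the share is close to the background. The median over the members was 0.09. With the replicate number as a block 4 members were higher, adding Pdia6 and Serpinh1, against 4.67% of genes. Without acetate replicate 2, Sil1, Sdf2l1 and Serpinh1 were higher, against 5.72% of genes, and P3h3 was lower, against 2.89%. Without acetate replicate 3, 5 members passed, against 705 of 12868 genes tested. Leaving out any 1 of the other 7 libraries ended the calls.

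Serpinh1 averaged 2238 ± 408 CPM in acetate and 1475 ± 68.9 CPM in ethanol, a difference of 0.59 ± 0.14 with an adjusted p of 0.0578, and of 0.0327 without acetate replicate 2 (range over the alternatives 0.000118 to 0.214). P3h3 ran the other way, with -0.16 ± 0.17 and an adjusted p of 0.549 over all libraries, and -0.37 ± 0.08 with 0.022 without that library (range 2.14e-05 to 0.958). Its 2 remaining acetate libraries lay below every ethanol library, while replicate 2 lay above them all. Calr differed by 0.36 ± 0.11 with an adjusted p of 0.127.

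Members with an ER stress element in the window did not have the larger ethanol differences. The 7 that hold one had a median ethanol change of -0.34, with 1 called lower, and the 27 members whose window lacks it had -0.41, with 6 called lower. With acetate the medians were -0.37 and -0.30 over all libraries, and -0.16 and -0.24 without replicate 2, so their order rests on that library. The 5 members with TGACGTG had a median of -0.38 with ethanol, and none of them was called. Across the 40 genes, which share the same libraries, r between GC content and the ethanol difference was -0.27, and between control level and that difference -0.17. The r between GC content and the acetate difference was 0.58, with replicate 2 included.

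The wider pathway was read from 7 further lists, and with ethanol 0 of their 113 tested genes passed in limma's test or in its voom fit, with 24 (21.2%) at an unadjusted p under 0.05, close to the 19.0% of all tested genes. The unfolded protein response sensors and effectors had a median of 0.01 over 16 genes with ethanol and 0.16 with acetate, or 0.08 with acetate without its replicate 2. The luminal stress sensor Ern1 (IRE1) stood at 48.2, 63.6 and 57.6 CPM in acetate, 41.9, 48.6 and 50.5 CPM in ethanol and 36.6, 36.2 and 44.4 CPM in control. Its differences of 0.52 ± 0.14 with acetate (adjusted p = 0.136) and 0.26 ± 0.14 with ethanol (adjusted p = 0.358) did not pass over all libraries. The sensor kinase Eif2ak3 (PERK) stood at 78.4, 73.6 and 78.3 CPM in acetate, 70.3, 72.8 and 71.6 CPM in ethanol and 89.0, 84.8 and 93.6 CPM in control, with -0.31 ± 0.10 for ethanol (adjusted p = 0.114). Atf6 differed by 0.12 ± 0.11 with acetate and 0.08 ± 0.11 with ethanol. The death-linked factor Ddit3 (CHOP) differed by 0.53 ± 0.18 and 0.22 ± 0.18. Neither gene passed in the reported fit. With the GC correction 3 of the 16 were higher with acetate, Ern1, Chac1 (a glutathione-degrading enzyme induced downstream of Atf4) and Ppp1r15a (a phosphatase subunit that reverses the kinases' translation block), against 2.98% of genes. With acetate, the block added to the GC correction called 5 of the 16 higher and 1 lower, against 9.78% and 6.80% of genes. The 5 higher were Atf6, Ern1, Ddit3, Ppp1r15a and Chac1, and the lower gene was Eif2ak3. The block without acetate replicate 2 called Atf6, Ern1, Ddit3, Ppp1r15a and Chac1 higher, against 12.2% of genes. With ethanol the GC correction called Ppp1r15a, its relative Ppp1r15b and Chac1 higher, against 7.19% of genes. These sensor and effector genes, and Selenos, were named after their values were seen.

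The biosynthetic lists had negative medians too. With ethanol the medians were -0.30 for 14 N-glycosylation genes, -0.30 for 13 oxidative folding genes, -0.22 for 16 translocon and signal peptide genes and -0.18 for 20 COPII coat, cargo receptor and retrieval genes. The 16 tested genes of ER-associated degradation had -0.03 and the 18 cytosolic and mitochondrial chaperones -0.08. Without acetate replicate 2, ethanol lowered 7 of 14 N-glycosylation genes, 5 of 13 oxidative folding genes, 7 of 20 COPII and retrieval genes and 4 of 16 translocon genes, with 0 higher in these 4 lists, against the 11.3% and 10.2% of genes given above. In that fit the degradation list had 3 lower and 2 higher, the sensor list 1 lower and 2 higher, and the cytosolic and mitochondrial list 1 lower. The same fit with acetate called Chac1 higher (0.60 ± 0.12, adjusted p = 0.0265) and Selenos lower.

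Selenos, a membrane selenoprotein of the degradation machinery, was the only gene of these lists called over all 9 libraries. It stood at 51.5, 46.9 and 47.2 CPM in acetate, 64.8, 71.8 and 66.7 CPM in ethanol and 71.3, 67.3 and 67.6 CPM in control. Acetate was lower than ethanol, a log2 difference of -0.47 ± 0.10 with an adjusted p of 0.0326, and its acetate libraries lay below all others.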

How the data were processed

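Polyadenylated RNA of 9 ATDC5 libraries had been prepared as stranded mRNA libraries for Illumina sequencing, per the labels' protocols. The submitters' processing notes name Partek, Bowtie2 2.2.5, STAR 2.7.8a and mm10 without roles. The deposited table holds log2 values of TMM-scaled CPM for 26202 genes, computed by the authors, with a small offset that sets a floor for 0 in each library. The offset was taken off to give TMM-scaled CPM. Of values between 1 and 20 reads, 85.6% to 87.2% per library were whole within 0.02 of a read, so the recovered reads were not used as counts in the reported fit, but only in the voom alternative, and no counting intervals are given. The counting strand and annotation are not given in the sources used here.

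Genes averaging at least 1 CPM were fitted with limma 3.58.1 (R 4.3.3) on log2(CPM + 1), all 9 libraries together with a mean-variance trend, and p-values were Benjamini-Hochberg adjusted over 12868 genes, with a threshold of 0.05. A ± after a log2 difference is its standard error. The steps were tested on simulated data with changes planted only in ethanol. The simulation held no GC trend and no pairing of libraries, so it does not test the fit under either. Its spread was taken from the control libraries alone. It therefore does not test the effect of acetate replicate 2 on the shared variance. GENCODE M21 (GRCm38) gave the coordinates, the GC content and the lengths, matched by symbol for 24919 genes and by synonym for 13, with 1270 not matched. Deviations from group means correlated between same-numbered libraries at 0.55, 0.36 and 0.67 for ethanol and control. They correlated at 0.15, 0.25 and 0.61 for acetate and ethanol. For acetate and control the values were 0.25, -0.10 and 0.41, so the pairing did not hold for replicate 2. Differently numbered acetate and control libraries correlated at -0.48 to 0.26. The block fits took the replicate number as a factor for all groups at once, acetate and control included. The reported fit had no block.

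The members and all lists were chosen with earlier results of these data known. Values per library were to be given for members past the threshold and, in every case, for Hspa5, Hsp90b1, Calr, Serpinh1, Xbp1, Creb3l2 and Dnajb9. The alternatives were other pseudocounts, filters and scalings, a voom fit, a GC correction, the block, and fits that left out libraries. Protein sequences were not used here.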

Additional observations from a re-analysis of the deposited data

How the results depend on the processing

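Over 19 alternatives and 63 named changes, 954 comparisons kept their direction and side of the threshold, 153 newly passed, 82 no longer passed and 8 reversed, and the causes were not tested. For ethanol minus control, 8 members passed as reported, 5 with no filter and 3 with quantile scaling. There were 23 with the GC correction (1955 genes in all) and 30 with only the 6 libraries compared (3443 genes). With 1 library left out, 0 to 28 passed (98 to 2766 genes). With the replicate block 12 passed (1074 genes), with block and GC correction 27 (4427 genes), and with the block and without acetate replicate 2, 34 (6466 genes). That last fit called 25.9% of all genes lower and 24.4% higher. The ethanol median was -0.30 with quantile scaling. For acetate minus control, 0 members passed as reported, 5 with the GC correction and 0 to 4 with 1 library left out. With the block 0 passed (293 genes), and with block and GC correction 15 (2134 genes), although replicate 2 of acetate and control did not pair. With the block and without acetate replicate 2, 19 passed (2773 genes). For acetate minus ethanol, 2 members passed as reported, 0 with no filter, with quantile scaling and with only the 6 libraries, 1 with median-of-ratios scaling, 6 with the GC correction and 0 to 5 with 1 library left out. With the block 4 passed (823 genes), with block and GC correction 15 (3610 genes), and with the block and without acetate replicate 2, 15 (4262 genes). In that last fit 12 members were higher and 3 lower, against 19.07% and 14.05% of genes. Over all 12868 genes tested, 506 passed with ethanol as reported, 1955 with the GC correction, 3443 with only the 6 libraries and 98 to 2766 with 1 left out. The block gave 1074, block with GC correction 4427, and the block without acetate replicate 2 6466. With acetate 129 passed, 644 with the GC correction, 20 with only the 6 libraries and 0 to 448 with 1 left out, of which the lowest was without control replicate 3. The block gave 293, block with GC correction 2134, and the block without acetate replicate 2 2773. Between acetate and ethanol 480 passed (366 higher, 114 lower), 1318 with the GC correction (848 higher, 470 lower), 107 with only the 6 libraries and 103 to 1108 with 1 left out. The block gave 823, block with GC correction 3610, and the block without acetate replicate 2 4262. Reversed differences were small: 0.017 for Canx with ethanol and 0.032 for Serpinh1 with acetate under quantile scaling. With 1 library left out, the acetate difference was -0.28 to 0.019 for Sil1, -0.097 to 0.20 for Sdf2l1 and -0.23 to 0.028 for Serpinh1, turning without acetate replicate 3 for Sil1 and Serpinh1 and without acetate replicate 2 for Sdf2l1. That of Sdf2l1 was also -0.088 with the GC correction, with or without the block, and -0.078 with the block and without acetate replicate 2. No member lay near the detection floor, so depth limited none of these values.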
